A study of Mus musculus with 32 samples.

Results

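The kallikrein-related peptidases are secreted serine proteases of the outer epidermis, encoded in mouse by a gene cluster on chromosome 7. The 10 genes Klk5, Klk6, Klk7, Klk8, Klk9, Klk10, Klk11, Klk12, Klk13 and Klk14 were taken by symbol as a family of the same locus, a choice for which the rule used no measured value, out of 55401 gene identifiers in the read counts of the mouse epidermis. All 10 were found, and all 10 passed the filter of at least 1 cpm (reads of a gene scaled to the size of its library) in at least 1 mouse, which 15546 genes passed in all. Klk14 passed it through UV-exposed mice only.

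Epidermis of 32 hairless SKH-1/SV129/BL6/J mice (the B6.129-SKH1-Hrhr strain, from a cross of SKH-1 with Sv129/C57BL6/J), aged 10 to 14 weeks, was sequenced as 1 library per mouse. Their genotype was WT (+/+) or KO (-/-), the latter being PPARD-/- littermates that lack PPARβ, and the treatment was Control or UV. UV mice had received 1 dose of 120 mJ/cm2 on the back and were sampled 24 h later, while Control mice (T0) were handled in the same way without UV. Each combination of sex, genotype and treatment held 4 mice, so that each genotype and treatment was represented by 8 mice. The hairless background is shared by all groups, the labels do not describe the deleted allele further, and the epidermis had been peeled from the dermis with ammonium thiocyanate. The reads assigned to genes numbered 22919428 in the shallowest and 40653581 in the deepest library. The labels give an RNA quality number (RQN) of 6.4 to 8.4 for the samples, a lower range than the paper states.

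Kallikreins are made as inactive precursors by differentiating keratinocytes and released from lamellar granules into the space between the cells of the stratum corneum. There they activate one another and cut the proteins of the corneodesmosomes, the junctions that hold dead corneocytes together, so that the outermost cells are shed. The serine protease inhibitor LEKTI, the product of Spink5, holds them in check, and its loss in Netherton syndrome leads to excessive shedding and a defective barrier. KLK5 and KLK14 cut after basic residues like trypsin and can activate other family members, KLK7 cuts like chymotrypsin, and trypsin-like kallikreins can also cut the protease-activated receptor PAR2 on keratinocytes.

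The 10 genes lie side by side on the forward strand of chromosome 7 in GRCm38, the build named in the submitters' processing notes, between positions 43690418 (start of Klk14) and 43851181 (end of Klk5), a span of 160.8 kb. Along this strand the order is Klk14, Klk13, Klk12, Klk11, Klk10, Klk9, Klk8, Klk7, Klk6 and Klk5. Promoter windows of the same build (GRCm38.p6) were available from RefSeq for all 10 genes, 12 windows in all, each running from 250 bases before to 50 bases after a start annotated there. These starts can differ from the gene starts of GENCODE M21 used for the positions above. The Klk5 window lies wholly inside its gene, which starts at 43841971, and the Klk12 window reaches only a little upstream of its gene's start at 43768897. The 4 windows printed here stand for the range of responses described next, from the gene with the largest rise after UV (Klk12) through a second steep riser (Klk10) and a moderate riser (Klk7) to the member that did not rise (Klk5). Capitals mark the bases from the start site on, and each sequence is the forward strand of chr7:43768850-43769149, chr7:43780804-43781103, chr7:43811044-43811343 and chr7:43842019-43842318 in this order.
Klk12: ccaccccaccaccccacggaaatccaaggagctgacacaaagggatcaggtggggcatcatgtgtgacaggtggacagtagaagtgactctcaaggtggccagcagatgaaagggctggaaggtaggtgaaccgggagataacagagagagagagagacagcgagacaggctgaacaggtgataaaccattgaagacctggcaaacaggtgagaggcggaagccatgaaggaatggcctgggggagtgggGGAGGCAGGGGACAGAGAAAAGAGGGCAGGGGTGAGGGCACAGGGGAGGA
Klk10: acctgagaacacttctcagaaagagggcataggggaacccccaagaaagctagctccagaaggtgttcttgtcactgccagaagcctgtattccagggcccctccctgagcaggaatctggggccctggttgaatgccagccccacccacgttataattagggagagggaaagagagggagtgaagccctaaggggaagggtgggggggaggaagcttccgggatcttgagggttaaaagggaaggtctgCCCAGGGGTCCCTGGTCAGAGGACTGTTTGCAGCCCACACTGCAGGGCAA
Klk7: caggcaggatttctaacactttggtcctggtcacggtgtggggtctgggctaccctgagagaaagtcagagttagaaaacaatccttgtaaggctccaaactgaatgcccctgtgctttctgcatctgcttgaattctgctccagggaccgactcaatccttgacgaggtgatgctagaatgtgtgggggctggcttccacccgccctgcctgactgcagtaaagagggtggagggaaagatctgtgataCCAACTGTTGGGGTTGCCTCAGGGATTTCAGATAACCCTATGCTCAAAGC
Klk5: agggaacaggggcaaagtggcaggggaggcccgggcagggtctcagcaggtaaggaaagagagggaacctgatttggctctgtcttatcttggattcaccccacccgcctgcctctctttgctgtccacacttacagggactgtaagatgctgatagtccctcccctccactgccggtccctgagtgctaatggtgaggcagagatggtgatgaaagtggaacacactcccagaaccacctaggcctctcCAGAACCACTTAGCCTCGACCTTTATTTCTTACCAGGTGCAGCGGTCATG
A search of both strands of the 12 windows for 5 short motifs gave no match in any of them. These were the TATA box TATAAA, held by 13.6% of all 32851 RefSeq promoter windows of the same length, the AP-1 motif TGANTCA (7.81%), the grainyhead motif AACNNGTT (4.2%), the stretch TTGCNNCAA (2.08%) and the DR1 direct repeat bound by PPAR heterodimers (0.0396%). The stretch TTGCNNCAA was listed for CEBP but does not match the usual palindromic CEBP site, so CEBP sites were not covered. The letters of all 5 were absent from these windows only. Elements outside them, such as any upstream of the Klk5 gene start, were not examined.

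The targeted gene was examined first. Reads on Ppard were present in every mouse, with 87.2 to 105 cpm in WT Control and 70.2 to 88.8 cpm in KO Control mice, and with 252 to 326 cpm in WT UV and 174 to 239 cpm in KO UV mice. The fitted difference between KO and WT was −0.26 (SE 0.07) on the log2 scale without UV (adjusted P value = 0.156, edgeR quasi-likelihood test) and −0.42 (SE 0.07) after UV (adjusted P value = 0.00114). Which exons were deleted was not stated in the sources used here, so the counts over the whole gene do not check the genotype, and KO below means labelled KO. Among the 32 libraries that of 1 female KO UV mouse (54F) stood apart, with 1980 cpm summed over 6 dermal fibroblast markers, against 92.1 cpm in the next highest mouse. The sum over 4 skeletal muscle markers exceeded 1000 cpm in 9 mice, none of them a male Control mouse. Epidermal markers were abundant in every library, the sum over the suprabasal genes Krt1, Krt10, Krt2, Lor, Flg and Ivl lying between 54731 and 98616 cpm in Control mice and between 4601 and 24661 cpm in UV mice.

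UV exposure raised most of the cluster. In WT mice 9 of the 10 genes rose and 1, Klk5, did not pass the test, at an adjusted P value under 0.05 in edgeR's quasi-likelihood test over all 32 mice. In KO mice the same 9 genes rose and Klk5 fell. Among all 15546 genes tested 34.5% rose and 36.5% fell in WT, and 37.3% rose and 33.5% fell in KO. The median log2 fold change of the 10 genes was 1.48 in WT and 1.22 in KO, beside −0.014 and 0.088 over all genes tested. In WT 8 of the 10 genes were higher in every UV mouse than in every Control mouse, which was the case for 21.3% of all genes, and in KO 6 of the 10, beside 18.6% of all genes. Klk14 is included in these counts and in those of rising genes. It passed the filter through UV mice only, so the filter favoured its rise and its separation. Together the 10 genes took 0.429% ± 0.0691 (SD, n = 8) of the reads in WT Control mice and 1.22% ± 0.105 in WT UV mice, and 0.457% ± 0.0478 and 1.05% ± 0.171 in KO mice. In bulk tissue, a change in the number of cells that make a transcript and a change in the amount per cell cannot be told apart.

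**Figure D1:**
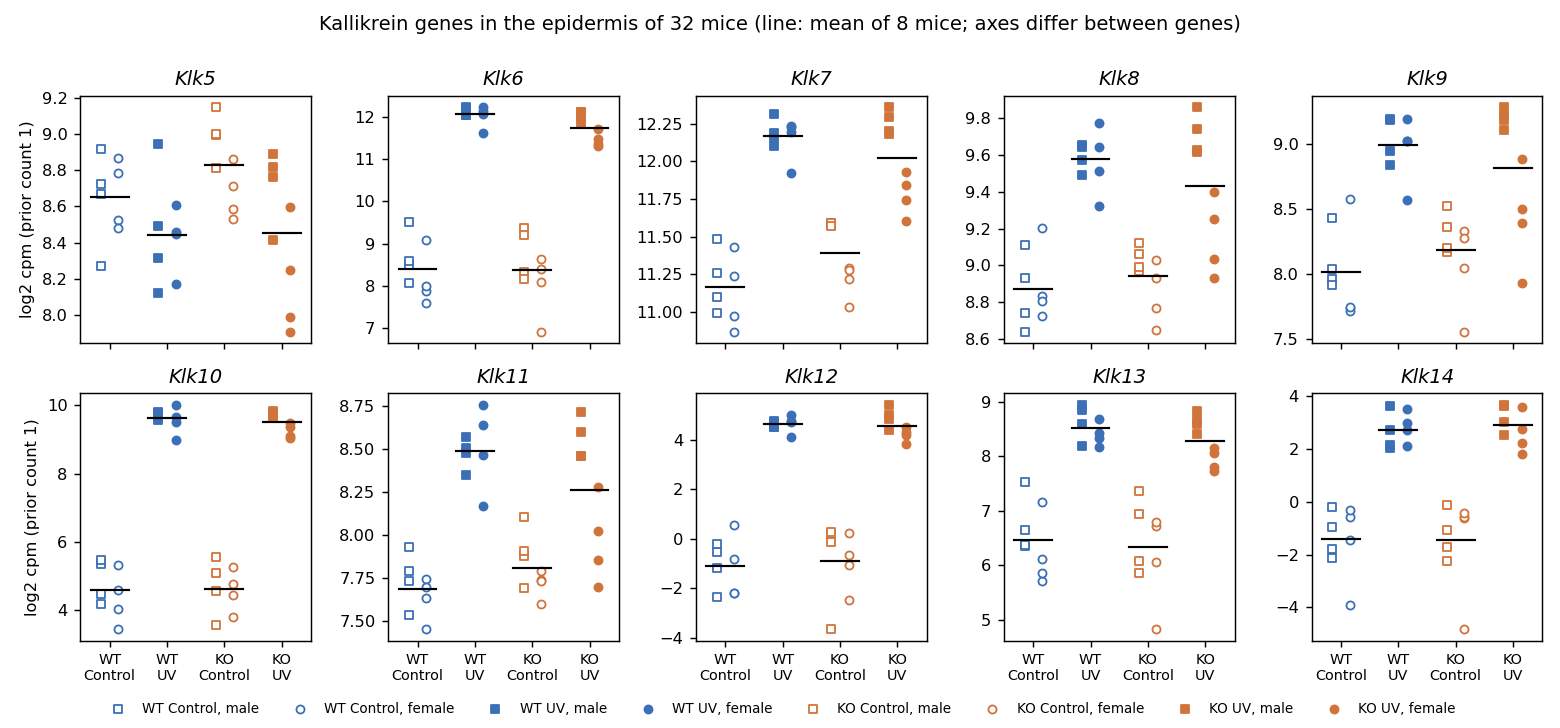
Level of each gene in each of the 32 mice as log2 cpm with a prior count of 1, with open symbols for Control, filled symbols for UV, squares for males, circles for females and a line at the mean of 8 mice. Klk6, Klk10, Klk12, Klk13 and Klk14 in UV mice lie clear of the Control mice in both genotypes, whereas Klk5 overlaps in both.

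The steepest rises were those of genes that were scarce without UV. Klk12 encodes a trypsin-like protease. Its level was 0.159 cpm at lowest, 0.472 at the median and 1.43 at highest in WT Control mice, or 5 to 36 reads, and 17.2, 26.0 and 31.9 cpm in WT UV mice. In KO mice the values were 0.0439, 0.744 and 1.18 cpm without UV and 14.0, 22.1 and 42.97 cpm after it. No Control mouse came near the lowest UV mouse in either genotype. The log2 fold change was 5.53 (SE 0.42, 46.2-fold, adjusted P value = 3.44e-12, edgeR) in WT and 5.10 (SE 0.41, 34.4-fold, adjusted P value = 1.09e-11) in KO.

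Klk10, for which no cleavage preference is given here, was the second steepest riser. It went from 10.8, 23.1 and 43.96 cpm (lowest, median and highest of 8 mice) to 512, 804 and 1039 cpm in WT, and from 11.9, 25.3 and 47.1 cpm to 525, 762 and 920 cpm in KO. The lowest UV mouse was thus above the highest Control mouse by a wide margin in both genotypes. The log2 fold change was 4.90 (SE 0.29, 29.9-fold, adjusted P value = 2.92e-14, edgeR) in WT and 4.74 (SE 0.29, 26.7-fold, adjusted P value = 5.55e-14) in KO.

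Klk14, a trypsin-like protease held to be among the most active kallikreins of the human stratum corneum, was barely detected without UV. Control mice had between 0.0317 and 0.825 cpm in WT and between 0 and 0.885 cpm in KO, which is at most 25 reads, and 1 female KO Control mouse (44F) had no read at all. UV mice had 4.07, 6.55 and 12.2 cpm in WT and 3.50, 7.41 and 12.7 cpm in KO. The groups did not overlap, with log2 fold changes of 4.03 (SE 0.50, adjusted P value = 5.40e-08, edgeR) in WT and 4.10 (SE 0.50, adjusted P value = 4.05e-08) in KO. Because Klk14 passed the filter through UV mice only, the filter favoured this outcome, and the values are a description. A fold change from so few Control reads is imprecise, and its 95% confidence interval in WT ran from 2.99 to 5.06 on the log2 scale.

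Klk6, a trypsin-like protease also known as neurosin, came next by the size of its change. Its level rose from 193, 314 and 726 cpm to 3139, 4433 and 4854 cpm in WT, and from 120, 329 and 657 cpm to 2567, 3536 and 4460 cpm in KO. Every UV mouse exceeded every Control mouse several times over, with log2 fold changes of 3.58 (SE 0.25, 11.98-fold, adjusted P value = 7.47e-13, edgeR) and 3.26 (SE 0.25, 9.59-fold, adjusted P value = 4.36e-12). Klk13, another trypsin-like member, rose less, from 52.3, 82.7 and 184 cpm to 290, 367 and 495 cpm in WT and from 28.4, 86.8 and 165 cpm to 214, 313 and 456 cpm in KO. Its log2 fold changes were 1.97 (SE 0.26, adjusted P value = 1.23e-07, edgeR) and 1.803 (SE 0.26, adjusted P value = 5.26e-07), again without overlap between the treatments.

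Klk7, the chymotrypsin-like enzyme first described in the stratum corneum, doubled in WT mice. It went from 1868, 2301 and 2859 cpm to 3877, 4684 and 5097 cpm in WT, and from 2092, 2775 and 3081 cpm to 3108, 4278 and 5270 cpm in KO. The treatments did not overlap in either genotype, although the lowest KO UV mouse exceeded the highest KO Control mouse only narrowly. The log2 fold change was 0.99 (SE 0.08, 1.99-fold, adjusted P value = 9.97e-12, edgeR) in WT and 0.63 (SE 0.08, 1.55-fold, adjusted P value = 5.82e-08) in KO.

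The other chymotrypsin-like member, Klk9, rose by a similar factor. It had 211, 245 and 382 cpm in WT Control and 379, 520 and 585 cpm in WT UV mice, where a single Control mouse (63F) reached the range of the UV mice. In KO it had 188, 302 and 368 cpm and, after UV, 245, 512 and 623 cpm, with overlap. The log2 fold change was 0.96 (SE 0.14, adjusted P value = 5.78e-07, edgeR) in WT and 0.63 (SE 0.14, adjusted P value = 1.91e-04) in KO.

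Klk8 and Klk11, both trypsin-like, showed the smallest rises. Klk8, also called neuropsin, went from 398, 452 and 589 cpm to 641, 780 and 875 cpm in WT and from 401, 504 and 557 cpm to 488, 731 and 931 cpm in KO. Klk11 went from 175, 210 and 244 cpm to 288, 360 and 433 cpm in WT and from 194, 218 and 276 cpm to 208, 332 and 421 cpm in KO. For both genes the treatments were separate in WT and overlapped in KO, where some of the females after UV had Control levels. The log2 fold changes of Klk8 were 0.70 (SE 0.08, adjusted P value = 2.61e-08, edgeR) and 0.50 (SE 0.08, adjusted P value = 6.50e-06), and those of Klk11 were 0.81 (SE 0.08, adjusted P value = 1.86e-09) and 0.46 (SE 0.08, adjusted P value = 1.93e-05).

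Klk5, the trypsin-like protease placed at the head of the kallikrein activation cascade, stood out by not rising. It had 309, 415 and 482 cpm in WT Control and 279, 351 and 492 cpm in WT UV mice, and 370, 458 and 568 cpm in KO Control and 240, 364 and 475 cpm in KO UV mice. Treatments overlapped widely in both genotypes. The log2 fold change was −0.20 in WT (SE 0.11, 95% confidence interval −0.44 to 0.03, adjusted P value = 0.116, edgeR), and Klk5 fell by 0.36 in KO (SE 0.11, adjusted P value = 0.00627). Both calls depended on single mice or small sets of mice: the fall passed the test in WT too without mouse 32M (−0.28, adjusted P value = 0.0241) or without mouse 43M (−0.26, adjusted P value = 0.0443), and in KO it no longer passed without the 9 mice rich in skeletal muscle markers (−0.24, adjusted P value = 0.14). The 9 rises passed the test in both genotypes in all 702 refits under other settings.

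**Figure D2:**
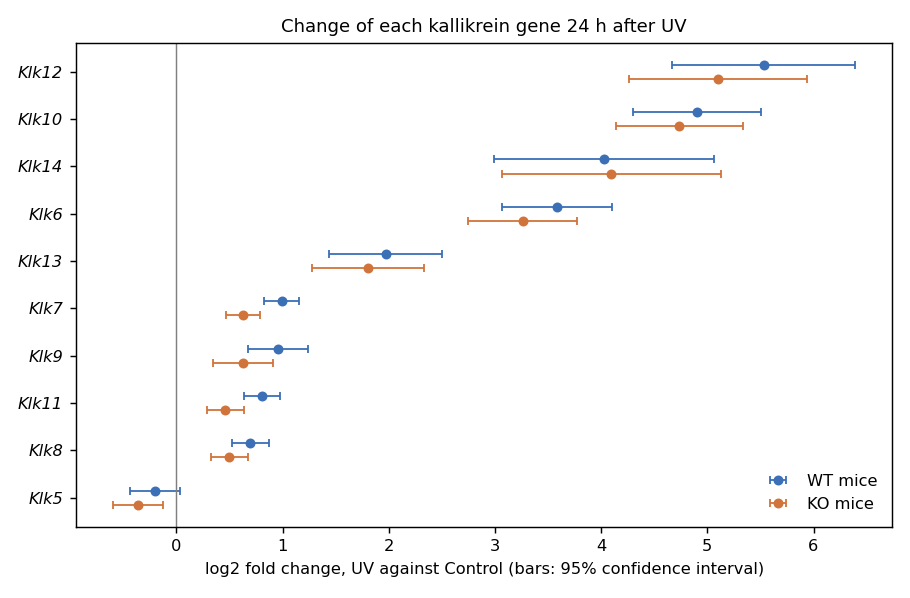
Log2 fold change of each gene between UV and Control mice in WT and KO, from edgeR, with 95% confidence intervals and genes ordered by the change in WT. The intervals of WT and KO overlap for every gene except Klk7, whose interval is 0.83 to 1.16 in WT and 0.47 to 0.79 in KO, and Klk11, whose intervals touch at 0.63.

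Read per kilobase of exon, which allows genes to be set side by side, the order of the members changed with UV. In WT Control mice Klk7 led with 1225 ± 189 cpm per kb (SD, n = 8). It was followed at a distance by Klk8 (307 ± 43.3), Klk5 (304 ± 44.1) and Klk6 (245 ± 119), which did not differ from one another beyond their spread. Klk9 (180 ± 43.6), Klk11 (141 ± 14.6), Klk13 (42.1 ± 19.9), Klk10 (19.7 ± 9.32), Klk12 (0.458 ± 0.36) and Klk14 (0.346 ± 0.224) came next, the last pair overlapping. In WT UV mice Klk6 (2888 ± 369) and Klk7 (2437 ± 191) led, ahead of Klk10 (583 ± 110) and Klk8 (498 ± 45.8), whose values overlapped. Klk5 stood at 265 ± 50.4 after UV, beside Klk11 at 247 ± 30.2. In KO UV mice the leading pair was Klk6 (2327 ± 512) and Klk7 (2228 ± 420), and these did not differ beyond their spread.

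The make-up of the kallikrein transcript pool shifted accordingly. Klk7 supplied 55.9% of the reads on the 10 genes in WT Control mice and 37.99% in WT UV mice, and Klk6 supplied 8.52% and 35.8%. The share of Klk10 went from 0.635% to 6.52% and that of Klk5 from 9.86% to 2.89%. In KO mice the shares after UV were 39.7% for Klk7, 32.9% for Klk6, 6.92% for Klk10 and 3.36% for Klk5.

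**Figure D3:**
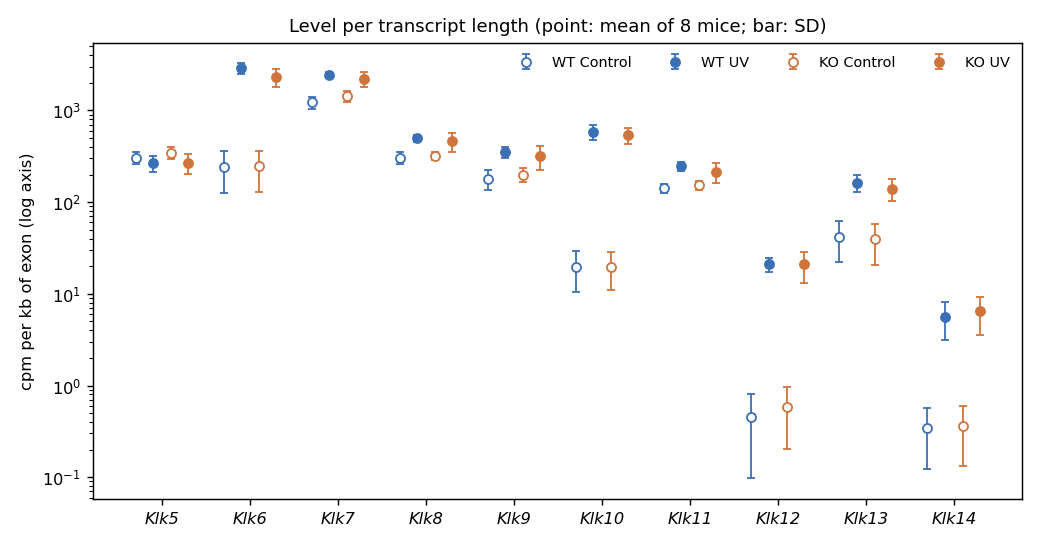
Mean cpm per kb of exon on a log axis for each gene in the 4 combinations of genotype and treatment, with the SD over 8 mice as bars. Klk6 and Klk10 move from the middle and lower part of the range without UV to the upper part after UV, and Klk5 stays between 265 and 344 cpm per kb.

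Along the chromosome, the size of the change did not run in one direction. Klk12 and Klk10, which rose most, flank Klk11, whose log2 fold change was 0.81 in WT. Klk6, with 3.58, lies between Klk7 (0.99) and Klk5 (−0.20), and the neighbours Klk9 (0.96), Klk8 (0.70) and Klk7 rose by similar amounts. The antisense transcript 2310002F09Rik on the reverse strand shares 382 exon bases with Klk8 (24.8% of its exon length) and 287 with Klk14 (22.6%). Its own level was 6.42 cpm ± 1.27 (SD, n = 8) in WT Control and 3.54 cpm ± 0.663 in WT UV mice, and it fell (log2 fold change −0.86, SE 0.15, adjusted P value = 7.17e-06, edgeR). The libraries were made with a stranded kit, but the strand setting of the counting was not given in the sources used here. How reads over the shared bases were assigned is therefore not known. The low values of Klk14 in Control mice could be affected in either direction. Of the 26 other genes of the extended family (Klk1, Klk4, Klk15 and the Klk1b genes, pseudogenes included), 1 passed the filter, Klk1b22, which was not called in either genotype (log2 fold change 1.18, SE 1.30, in WT and −0.82, SE 1.28, in KO). The Klk1b genes are near-identical copies, and reads may have been split among them.

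**Figure D4:**
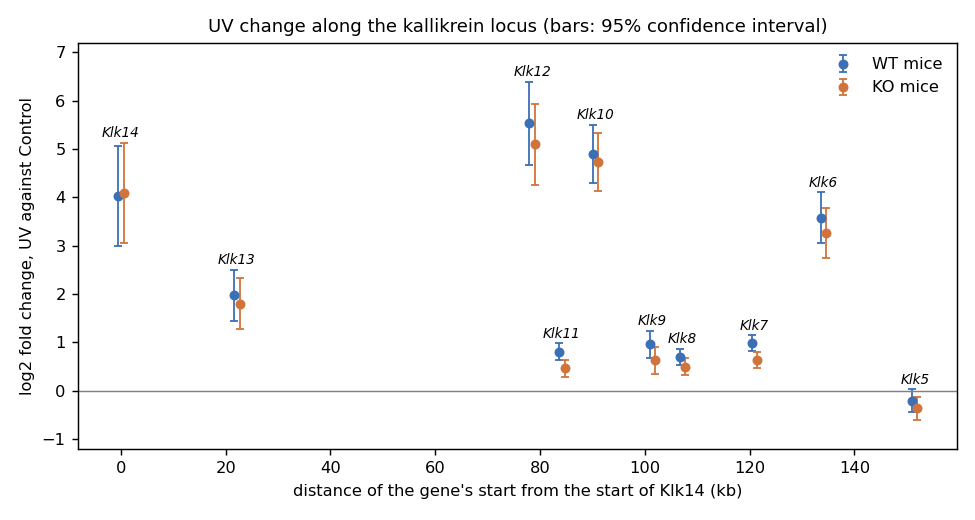
Log2 fold change after UV, with 95% confidence intervals, against the distance of each gene's start from the start of Klk14 in kb. Klk12, Klk10, Klk14 and Klk6 lie above 3 in both genotypes, and genes with changes below 1 lie between them.

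The mice of a group did not vary to the same extent in all members. In Control mice the SD of log2 cpm around the group means (16 mice, 12 residual degrees of freedom) was 0.14 for Klk11, 0.18 for Klk7, 0.18 for Klk8 and 0.19 for Klk5, but 0.66 for Klk6, 0.72 for Klk13, 0.73 for Klk10, 1.37 for Klk12 and 1.49 for Klk14. After UV the SD of Klk6 was 0.18, that of Klk13 0.24 and that of Klk10 0.25. The genes that rose steeply were thus also those that varied most among Control mice, and the spread of Klk12 and Klk14 there includes counting error at a few reads.

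This variation was shared among some members. With each group's mean subtracted, the Pearson correlation of log2 cpm over the 32 mice was 0.93 between Klk6 and Klk13, 0.84 between Klk6 and Klk10, 0.81 between Klk10 and Klk12 and 0.73 between Klk6 and Klk14. The pattern was not confined to the steep risers, since Klk6 also gave 0.81 with Klk9 and 0.71 with Klk7. Klk12 and Klk14, both steep risers, gave 0.43. By contrast Klk11 gave 0.12 with Klk6, 0.03 with Klk10 and −0.09 with Klk13, but 0.59 with Klk7. Klk5 gave 0.17 with Klk6 and −0.01 with Klk10, but 0.57 with Klk8. Over all 45 pairs the median was 0.52. These values describe libraries that share their depth, scaling and tissue sample and are given without a test.

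Stress keratins moved most closely with Klk6, Klk10, Klk13 and Klk12. The summed level of Krt6a, Krt6b, Krt16 and Krt17, keratins of injured and hyperproliferative epidermis, was 1319 to 7524 cpm in WT Control and 49889 to 69824 cpm in WT UV mice, and 883 to 11334 cpm and 46246 to 76267 cpm in KO mice. Within groups its correlation over the 32 mice was 0.88 with Klk6, 0.88 with Klk10, 0.87 with Klk13, 0.80 with Klk12 and 0.69 with Klk14. It was 0.61 with Klk9, 0.46 with Klk7 and 0.42 with Klk8, against −0.02 with Klk11 and −0.08 with Klk5. Other markers also went with some of these members: basal keratinocyte markers gave 0.60 with Klk10 and 0.57 with Klk12, and neutrophil markers 0.59 with Klk10 and 0.58 with Klk14. The summed level of 6 suprabasal markers fell from 59773 to 69648 cpm in WT Control mice to 7986 to 20439 cpm in WT UV mice, and its within-group correlation was 0.70 with Klk11, 0.48 with Klk5 and −0.01 with Klk6. Of 5 neutrophil markers, S100a8 and S100a9, which stressed keratinocytes also make, rose in WT from means of 23.1 to 427 cpm and of 28.2 to 549 cpm. Cxcr2 stayed at 28.6 and 29.2 cpm in WT, while Ly6g and Retnlg had means under 1 cpm in all groups. Of the 4 neutrophil markers tested, 2 rose and 0 fell in WT, beside 34.5% and 36.5% of all genes. In KO 3 of them rose and 1 fell, beside 37.3% and 33.5% of all genes. The part of these marker changes in the kallikrein levels was not tested.

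Likeness to the other genes was taken for the 3 members with the highest mean cpm. The genes most correlated with Klk6 within groups were Gm44383 (0.89), Sprr1a (0.89), a precursor of the cornified envelope, and Krt6b (0.88). For Klk7 they were Dnase1l3 (0.84), Ippk (0.80) and Rnf185 (0.79). For Klk8 they were Rars (0.73), Trex2 (0.72), a nuclease of differentiated keratinocytes, and Dhrs1 (0.71).

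The KO genotype was compared with WT to ask whether PPARβ alters these genes. Without UV none of the 10 genes differed between KO and WT in edgeR's test, where 0.206% of all genes did, and DESeq2 called 0 as well. At an unadjusted P value under 0.05 there was 1, beside 8.52% of all genes. This was Klk7, with 2322 cpm ± 359 (SD, n = 8) in WT and 2715 cpm ± 394 in KO (log2 difference 0.21, SE 0.08, adjusted P value = 0.413). After UV none of the 10 genes differed, beside 3.31% of all genes and 0 of the 10 in DESeq2, and 1 had an unadjusted P value under 0.05, beside 20.1% of all genes. This was Klk11, with 363 cpm ± 44.2 in WT UV and 316 cpm ± 76.4 in KO UV mice (log2 difference −0.23, SE 0.08, adjusted P value = 0.119). Klk11 passed the test when the female WT UV mouse 59F (−0.29, adjusted P value = 0.0487) or the female KO UV mouse 74F (−0.33, adjusted P value = 0.0214) was left out.

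The change after UV was also compared directly between the genotypes. The rise was smaller in KO than in WT for 8 genes and larger for Klk14, and the estimate of Klk5 was further below 0 in KO, but none of the 10 differences passed the test, beside 0.765% of all genes, and 2 had an unadjusted P value under 0.05, beside 19.6% of all genes. The smallest adjusted P value belonged to Klk7, whose rise was smaller by 0.36 in KO (difference −0.36, SE 0.11, 95% confidence interval −0.59 to −0.13, unadjusted P value = 0.00306, adjusted P value = 0.0972, edgeR). For Klk11 the difference was −0.35 (SE 0.12, adjusted P value = 0.121). DESeq2 called both, with −0.40 (adjusted P value = 0.0190) for Klk7 and −0.38 (adjusted P value = 0.0439) for Klk11, and edgeR called Klk11 without mouse 74F (−0.45, adjusted P value = 0.0431). DESeq2 also called more genes in all here, 841 of 15546 against 119 in edgeR. Without mouse 54F, rich in fibroblast markers, the difference was −0.38 (adjusted P value = 0.104) for Klk7 and −0.35 (adjusted P value = 0.138) for Klk11. For the steep risers the intervals were wide, −0.89 to 0.57 for Klk10 and −1.52 to 0.66 for Klk12, so that sizeable differences in either direction were not resolved.

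Males and females were also compared, since the samples were labelled by sex. None of the 10 genes differed in its response to UV between the sexes in WT or KO mice at an adjusted P value under 0.05 in edgeR, and neither did any other gene (0% of all genes in either genotype). At an unadjusted P value under 0.05 there were 0 members in WT, beside 2.7% of all genes, and 2 in KO, beside 9.53% of all genes. Those in KO were Klk11 (difference between female and male response −0.40, SE 0.17, adjusted P value = 0.442) and Klk8 (−0.37, SE 0.17, adjusted P value = 0.486), while DESeq2 called 0 members in either genotype. Without UV none of the 10 genes differed between the sexes in edgeR or in DESeq2, beside 6.86% of all genes, and 2, Klk6 and Klk7, had an unadjusted P value under 0.05, beside 25.1% of all genes. Both passed in edgeR without the female WT Control mouse 63F (adjusted P values 0.0274 and 0.0315), and Klk7 without the male WT Control mouse 69M (adjusted P value = 0.0495). The smallest adjusted P value was that of Klk7 (0.0778, log2 difference of females against males −0.22, SE 0.08).

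After UV all 10 estimates were lower in females than in males, averaged over the genotypes. None passed the test, beside 3.03% of all genes, and 5 had an unadjusted P value under 0.05, beside 20.4% of all genes. The smallest adjusted P values were those of Klk8 (0.0579, log2 difference −0.28, SE 0.08) and Klk7 (0.0638, −0.26, SE 0.08), and DESeq2 called 4 members, Klk7, Klk8, Klk9 and Klk11. DESeq2 also called more genes in all, 1196 of 15546 against 471 in the main edgeR fit. In edgeR, RLE scaling gave 1 call and the filterByExpr filter 3. Over all genes these gave 574 calls of 15546 and 640 of 16613. Totals over all genes with single mice left out are not given here. Leaving out single mice gave 0 to 5 calls, with 5 without 74F, 3 without 52M, 2 without 58M and 1 without 51F, 52F, 57F or 63F, and leaving out the 9 mice rich in skeletal muscle markers gave 0.

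After UV the sexes were separate for most members in KO mice, a pattern that was noticed after the values were seen. In KO UV mice every female was below every male for 7 of the 10 genes (Klk6, Klk7, Klk8, Klk9, Klk10, Klk11 and Klk13), as was the case for 4.77% of all genes, and in WT UV mice for 0 of the 10, beside 1.45% of all genes. For Klk7 the KO UV females had 3108 to 3898 cpm and the males 4658 to 5270 cpm, while in WT UV mice females had 3877, 4686, 4807 and 4828 cpm and males 4399, 4567, 4682 and 5097 cpm. In KO Control mice 1 of the 10 genes was separate in this way, beside 9.16% of all genes, and in WT Control mice 0, beside 2.11%. The gene separate in KO Control mice was Klk7, with 2092 to 2507 cpm in females and 3043 to 3081 cpm in males. Whether the sex difference itself differed between the genotypes was not tested. Skeletal muscle markers summed to 44.1 to 1758 cpm in the KO UV females and to 0.649 to 1145 cpm in the KO UV males, fibroblast markers reached 1980 cpm in 1 of these females, and suprabasal markers summed to 4601 to 14675 cpm in the females and 13516 to 24661 cpm in the males. Their part in this difference was not tested.

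The inhibitors of the kallikreins changed in both directions. Of 8 listed inhibitor genes 5 were tested, of which 2 rose and 2 fell in each genotype (median log2 fold changes −0.01 for WT and −0.21 for KO). These counts lie near the shares over all genes, 34.5% up and 36.5% down in WT and 37.3% and 33.5% in KO. Spink5 had 1718 cpm ± 426 (SD, n = 8) in WT Control and 1716 cpm ± 396 in WT UV mice and was called in neither genotype (log2 fold change −0.01, SE 0.16, adjusted P value = 0.973 in WT, and −0.21, SE 0.16, adjusted P value = 0.231 in KO, edgeR). Slpi, a secretory inhibitor of leukocyte proteases that also acts on KLK7, rose from 3.36 cpm ± 2.31 to 219 cpm ± 60.9 in WT (log2 fold change 6.07, SE 0.38, adjusted P value = 7.49e-14). Serpina12, also called vaspin and an inhibitor of KLK7, fell from 348 cpm ± 55.2 to 42.0 cpm ± 22.5 in WT (log2 fold change −3.06, SE 0.30, adjusted P value = 4.02e-10). Spink12 rose but stayed scarce, with 0.169 cpm ± 0.158 in WT Control and 1.73 cpm ± 0.797 in WT UV mice, and Serpina5 had 0 reads in all 8 WT UV mice and 0 to 26 reads in WT Control mice.

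The balance of protease to inhibitor transcripts was followed as the ratio of each to Spink5. The log2 ratio of Klk7 to Spink5 was 0.47 ± 0.43 (SD, n = 8) in WT Control and 1.45 ± 0.24 in WT UV mice, a difference of 0.99 (adjusted P value = 0.00367, two-sided exact permutation test within each sex). In KO the ratio went from 0.50 ± 0.28 to 1.34 ± 0.25, a difference of 0.84 (adjusted P value = 0.00245 by the same exact test, based on the smallest P value that its 4900 arrangements allow). The log2 ratio of Klk5 to Spink5 was −2.05 ± 0.31 in WT Control and −2.27 ± 0.18 in WT UV mice (difference −0.22, adjusted P value = 0.216, exact permutation test), and −2.06 ± 0.18 and −2.23 ± 0.34 in KO (difference −0.17, adjusted P value = 0.382, exact permutation test). The change of neither ratio differed between KO and WT by an exact permutation test (0.06, adjusted P value = 0.749, for Klk5 and −0.15, adjusted P value = 0.593, for Klk7). The 6 tests of these ratios were adjusted together.

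Membrane-bound and activating proteases rose in part. Of 9 genes of this list, inhibitors included, 7 were tested, of which 4 rose and 2 fell in each genotype (median log2 fold changes 0.85 for WT and 0.66 for KO). Over all genes 34.5% rose and 36.5% fell in WT, and 37.3% rose and 33.5% fell in KO. St14, which encodes matriptase, an activator of kallikrein precursors, rose from 159 to 288 cpm in WT (log2 fold change 0.85, SE 0.06, adjusted P value = 7.47e-13, edgeR), and its inhibitor Spint1 rose alongside (1.04, SE 0.07, adjusted P value = 2.63e-13). Furin, a proprotein convertase, rose (0.92, SE 0.07), and so did Tmprss11e (2.25, SE 0.28), from 1.82 to 8.67 cpm. All 4 rose in KO too, by 0.66 to 2.44 on the log2 scale. These 4 were named for their smallest P values in WT and do not stand for the whole list. Prss8, of the same list, went from means of 137.7 to 99.98 cpm in WT and of 158.5 to 101.2 cpm in KO.

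The structural targets of the kallikreins went in different directions. Corneodesmosin (Cdsn), cut during shedding, rose slightly in WT, from 2164 cpm ± 337 (SD, n = 8) to 2745 cpm ± 582 (log2 fold change 0.34, SE 0.13, adjusted P value = 0.0214, edgeR), and was not called in KO (−0.01, SE 0.13, adjusted P value = 0.973). The difference between these changes was not called (−0.35, SE 0.19, adjusted P value = 0.30). The desmosomal cadherins Dsg1a and Dsg1b moved apart in WT: Dsg1a fell from 2764 cpm ± 599 to 1146 cpm ± 159 (log2 fold change −1.27, SE 0.12, adjusted P value = 3.17e-10), and Dsg1b rose from 461 cpm ± 93.3 to 861 cpm ± 123 (0.90, SE 0.13, adjusted P value = 9.72e-07). Desmocollin 1 (Dsc1) rose (0.67, SE 0.15, adjusted P value = 2.39e-04). Of the 5 genes of this list 3 rose and 1 fell in WT, beside 34.5% and 36.5% of all genes. In KO 2 rose and 2 fell, beside 37.3% and 33.5% of all genes. Dsg1a, Dsg1b and Dsg1c are close paralogs, and their counts may share reads.

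Signalling targets fell or rose with larger factors. F2rl1, which encodes the receptor PAR2, fell from 55.5 cpm ± 4.37 (SD, n = 8) to 11.1 cpm ± 1.09 in WT (log2 fold change −2.32, SE 0.09, adjusted P value = 2.78e-18, edgeR) and from 52.4 cpm ± 8.40 to 12.8 cpm ± 1.72 in KO (−2.04, SE 0.09, adjusted P value = 3.12e-17). F2r, which encodes the thrombin receptor PAR1, fell by 1.8 in WT and by 1.08 in KO on the log2 scale, and Tslp, an epithelial cytokine that can be induced downstream of PAR2, rose by 2.66 in WT and 2.74 in KO. Of the 10 other proteases and inhibitors of cornification 8 rose and 2 fell in each genotype, beside 34.5% and 36.5% of all genes in WT and 37.3% and 33.5% in KO. Of these 10, Ctsh (log2 fold change 0.97, SE 0.07, in WT), Cstb (1.08, SE 0.09) and Ctsl (1.27, SE 0.11), lysosomal proteases and a cystatin, rose, and Asprv1, a retroviral-like protease of the granular layer that processes filaggrin, fell by 1.15 (SE 0.13).

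**Figure D5:**
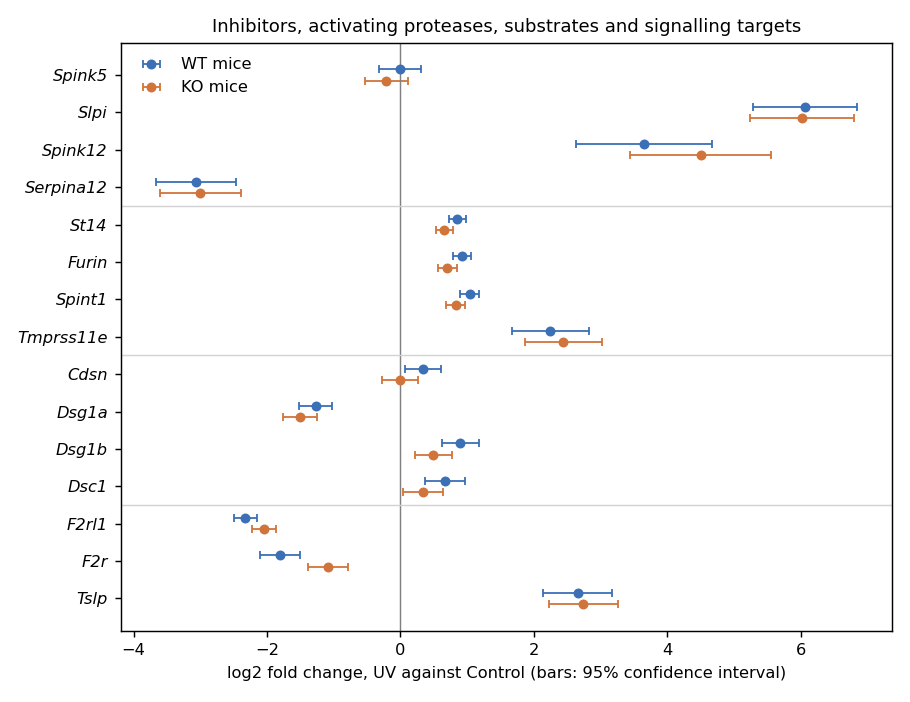
Log2 fold change after UV with 95% confidence intervals in WT and KO mice for inhibitors, activating proteases with Spint1, corneodesmosome substrates and signalling targets, separated by lines. Spink5 lies at −0.01 in WT and −0.21 in KO, Slpi near 6 and Serpina12 near −3 in both genotypes, and Dsg1a and Dsg1b lie on opposite sides of 0.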

How the data were processed

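Dorsal epidermis of 32 mice was measured by stranded mRNA sequencing, 1 library per mouse. The deposited values are whole-number read counts per Ensembl gene: the authors trimmed single reads with Cutadapt 1.8, removed ribosomal and low-complexity reads, aligned with STAR 2.5.3a to GRCm38 (build per the submitters' processing notes) and counted with HTSeq 0.9.1, whose strand setting was not given in the sources used here. Rows that name no gene were left out; they held 6.8 to 9.75% (no feature) and 1.28 to 1.56% (ambiguous) of the reads. Symbols and positions were taken from GENCODE M21 for 55141 of 55401 identifiers.

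Groups came from the labels (sex, genotype, treatment; 4 mice each, numbered as mice). Genes that reached 1 cpm in 1 mouse or more were normalised by TMM and tested in edgeR 4.0.16 (quasi-likelihood, 1 mean per group, contrasts averaged over the sexes, R 4.3.3) with Benjamini-Hochberg adjustment over 15546 genes and a threshold of 0.05. Ratios to Spink5 were tested by exact permutation within sex. Log2 cpm for ratios, spreads and correlations used a prior count of 1. Alternatives were RLE scaling, DESeq2 1.42.0, limma-trend (limma 3.58.1), no filter, filterByExpr, 1 genotype per fit, a prior count of 0.25 for ratios, and each mouse left out. Leaving out the mice over 1000 cpm of 4 skeletal muscle markers was added after seeing the data. It left as few as 2 mice in a group, so calls lost there can reflect fewer mice. The test was checked on simulated counts of the same 15546 genes. The changed genes were drawn from those with higher mean read counts, and the other 15346 had no change. In the data most genes were called for UV, so the recovery applies to the simulated setting and does not cover scarce genes. With 40 genes per size, it recovered for the UV effect in WT 95, 70, 75, 85 and 97.5% of true log2 changes of −2, −1, 0.585, 1 and 2, and for genotype by UV 95, 65, 40, 75 and 92.5%.

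The rule for the members uses gene symbols only, but the members and gene lists were proposed with earlier results of these data known. Named were all 10 kallikreins, Ppard, the 4 genes of each list with the smallest P value for UV in WT, and always Spink5, Cdsn, Dsg1a, Dsg1b and F2rl1. Depth was 22919428 to 40653581 reads per mouse (median 27600228), so genes with few reads, Klk12 and Klk14 in Control mice, carry the largest error. Python used numpy 2.4.6, scipy 1.17.1 and pandas 2.3.3.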

Additional observations from a re-analysis of the deposited data

Results flagged for a closer look

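Among the 80 sets of 4 mice formed by the 10 kallikreins and the 8 groups, 4 held a mouse far from the other 3 by Dixon's criterion at the 95% level, which chance alone gives in about 1 set in 20. In female WT UV mice, 59F had 3877 cpm of Klk7, against 4686 to 4828 cpm in the other mice. In female WT Control mice, 63F had 382 cpm of Klk9, against 211 to 215 cpm. In male KO Control mice, 52M had 0.0439 cpm of Klk12, which is 1 read, against 0.885 to 1.18 cpm. In female KO Control mice, 44F had 0 cpm of Klk14, against 0.612 to 0.709 cpm.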

How the results depend on the processing

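The called rises of Klk6 to Klk14 after UV held under all alternatives, 702 of 702 refits in both genotypes, most of them with 1 mouse of either genotype left out. Leaving out 1 mouse gave 9 to 10 members called in WT and 10 in KO, and 9 in each without the muscle-rich mice, where Klk5 in KO was lost (−0.24) and Klk5 in WT was −0.03. For the comparisons of genotype and sex, most counts of 0 members did not hold everywhere. DESeq2 gave 2 for genotype by UV and 4 for females against males after UV, where RLE gave 1 and filterByExpr gave 3. For both comparisons DESeq2 also called more genes in all (841 and 1196, against 119 and 471 in edgeR). With 1 mouse left out the count was 0 to 1 for KO against WT after UV (1 without 59F or 74F), 0 to 1 for genotype by UV (1 without 74F), 0 to 2 for females against males without UV (2 without 63F, 1 without 69M) and 0 to 5 after UV (5 without 74F, 3 without 52M, 2 without 58M, 1 without 51F, 52F, 57F or 63F). The cause was not tested.

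Uncalled differences changed sign in 16 cases other than single mice left out, with adjusted P values of at least 0.667. Without the muscle-rich mice these were, on the log2 scale, Klk6 0.32 and Klk13 0.21 (KO against WT without UV), Klk12 0.037 (after UV), Klk14 −0.25 (genotype by UV), Klk5 0.084, Klk8 0.10 and Klk12 0.67 (sex by UV in WT) and Klk6 −0.084 (sex by UV in KO). With limma-trend they were Klk14 −0.034 (KO against WT without UV), Klk12 0.10 (sex by UV in WT) and Klk14 −0.30 (females against males without UV). For KO against WT after UV, Klk5 was −0.013 with RLE, −0.013 with DESeq2, −0.034 with no filter and −0.027 with filterByExpr, and Klk9 was −0.0045 with no filter (sex by UV in WT).

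With 1 mouse left out, ranges spanning 0 were, for KO against WT without UV, −0.12 to 0.20 (Klk6), −0.14 to 0.24 (Klk10), −0.24 to 0.13 (Klk13) and −0.19 to 0.35 (Klk14). After UV they were −0.11 to 0.090 (Klk5), −0.15 to 0.0090 (Klk12) and −0.055 to 0.39 (Klk14), and for genotype by UV −0.38 to 0.00077 (Klk10) and −0.18 to 0.36 (Klk14). For sex by UV in WT they were −0.18 to 0.11 (Klk5), −0.067 to 0.14 (Klk7), −0.15 to 0.059 (Klk8), −0.10 to 0.29 (Klk9), −0.47 to 0.75 (Klk12), −0.12 to 0.66 (Klk13) and −0.35 to 0.59 (Klk14), and in KO −0.081 to 0.36 (Klk6) and −0.59 to 0.30 (Klk12). For females against males they were −0.59 to 0.024 (Klk12) and −0.13 to 0.37 (Klk14) without UV and −0.41 to 0.033 (Klk14) after it, and for the change of the Klk5 to Spink5 ratio in KO against WT −0.037 to 0.13.

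Over all genes, calls for genotype by UV numbered 119, against 841 with DESeq2, 55 with no filter and 30 without the muscle-rich mice. For KO against WT they numbered 32 without UV (DESeq2 78, muscle-rich mice left out 18) and 514 after it (DESeq2 1116, limma-trend 260, no filter 263, muscle-rich mice left out 26). For females against males they numbered 1066 without UV (DESeq2 1676, no filter 327, filterByExpr 653, muscle-rich mice left out 226) and 471 after it (DESeq2 1196, no filter 239, muscle-rich mice left out 26), and for sex by UV 0 in WT (DESeq2 3) and 0 in KO (DESeq2 35, KO mice alone 1). No paired analysis was possible because each mouse is its own animal with its own label (number and sex letter), and nothing in the labels ties mice of different groups. Klk12 and Klk14 in Control mice rest on at most 44 reads, which limits their precision.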
